A study of Mus musculus with 2 samples.

Results

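The mRNAs of 9 enzymes that activate, import and oxidize fatty acids, Cpt1a, Cpt2, Acadl, Acadm, Acadvl, Hadha, Hadhb, Acaa2 and Acsbg1, were read in single hippocampal cells of control (CT) and Opa1 cKO mice. They were found by gene symbol, and all 9 were among the 22587 symbols counted. The 2 libraries came from YFP+ cells sorted from the hippocampus of mice aged 12 weeks, which had received tamoxifen (TAM) at 8 weeks, 4 weeks before the sort. Both carried Nestin-CreERT2 and ROSA26YFP, so that TAM labelled nestin-expressing cells and their progeny with YFP. The Opa1 cKO library also carried floxed Opa1, whereas the CT mice were bred without it according to the study's methods, although the strain label reads Opa1-Flox;Nestin-CreERT2;ROSA26YFP for both. Cells of 3 mice were pooled into 1 library per genotype. Genotype and library therefore cannot be told apart, and no test between genotypes was possible. Intervals are exact 95% intervals and cover counting error only.

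Long-chain fatty acids are first joined to coenzyme A by acyl-CoA synthetases, of which Acsbg1 is a form found in brain. Cpt1a, at the outer mitochondrial membrane, and Cpt2, at the inner one, pass the acyl group across as a carnitine ester. In the matrix the acyl-CoA dehydrogenases Acadvl, Acadl and Acadm take chains of decreasing length, and the trifunctional protein, made of the alpha subunit Hadha and the beta subunit Hadhb, and the thiolase Acaa2 carry out the remaining steps. Neural stem cells (NSC) of the dentate gyrus and astrocytes are known to use this pathway, and Opa1 is the GTPase that fuses the inner mitochondrial membrane and shapes its cristae. None of the 9 enzymes makes ketone bodies itself. The genes of ketone body metabolism were read as a separate list.

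In mm10, Hadha (ENSMUSG00000025745, chromosome 5, 30118304 to 30155162, minus strand) and Hadhb (ENSMUSG00000059447, chromosome 5, 30155248 to 30184593, plus strand) lie head to head. Their starts are 86 bases apart in GENCODE M21 and 273 bases apart in RefSeq. Promoter windows of 250 bases before and 50 from the start on, from RefSeq (GRCm38.p6), were present for 8 of the 9 genes. The Hadha and Hadhb windows are shown because the 2 genes share 228 bases of them and yet differed in the comparison of genotypes. Those of Acsbg1, Acadl and Acadm are shown because Acsbg1 and Acadl differed mainly with the mitochondrial transcript share and Acadm mainly between the libraries. All run 5′ to 3′ on the gene's own strand, chr5:30154931-30155230 (minus), chr5:30155003-30155302 (plus), chr9:54661836-54662135 (minus), chr1:66863260-66863559 (minus) and chr3:153944594-153944893 (minus), in that order, and capitals mark a motif match.
Hadha: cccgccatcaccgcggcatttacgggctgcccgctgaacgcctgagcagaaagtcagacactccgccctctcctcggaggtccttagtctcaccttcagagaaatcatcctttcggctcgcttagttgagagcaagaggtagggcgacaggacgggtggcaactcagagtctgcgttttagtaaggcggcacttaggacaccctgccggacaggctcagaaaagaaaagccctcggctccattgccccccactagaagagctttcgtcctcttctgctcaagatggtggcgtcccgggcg
Hadhb: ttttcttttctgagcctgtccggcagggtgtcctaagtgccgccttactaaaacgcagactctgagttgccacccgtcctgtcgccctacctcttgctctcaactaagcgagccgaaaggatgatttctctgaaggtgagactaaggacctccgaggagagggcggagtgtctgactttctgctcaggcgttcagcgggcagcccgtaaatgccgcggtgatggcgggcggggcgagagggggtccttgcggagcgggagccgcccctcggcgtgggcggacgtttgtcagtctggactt
Acsbg1: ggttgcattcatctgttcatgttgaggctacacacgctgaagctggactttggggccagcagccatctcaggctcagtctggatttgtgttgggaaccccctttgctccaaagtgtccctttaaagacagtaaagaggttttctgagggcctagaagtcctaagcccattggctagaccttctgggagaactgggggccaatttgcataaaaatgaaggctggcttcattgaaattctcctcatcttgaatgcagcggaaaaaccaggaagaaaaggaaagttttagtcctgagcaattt
Acadl: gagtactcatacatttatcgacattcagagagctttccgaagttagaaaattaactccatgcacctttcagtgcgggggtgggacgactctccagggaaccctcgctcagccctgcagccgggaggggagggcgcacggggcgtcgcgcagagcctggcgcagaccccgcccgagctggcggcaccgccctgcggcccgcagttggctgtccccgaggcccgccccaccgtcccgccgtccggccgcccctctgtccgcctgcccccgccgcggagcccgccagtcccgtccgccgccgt
Acadm: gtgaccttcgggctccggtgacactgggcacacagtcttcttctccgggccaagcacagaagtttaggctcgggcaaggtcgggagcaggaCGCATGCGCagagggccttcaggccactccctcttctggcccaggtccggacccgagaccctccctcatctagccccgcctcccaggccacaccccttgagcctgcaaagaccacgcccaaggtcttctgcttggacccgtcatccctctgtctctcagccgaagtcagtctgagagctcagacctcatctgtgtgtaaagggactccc
Searched on both strands were the ATF4 composite core TGATGNAA, the estrogen-related receptor element TNAAGGTCA and the core GCGCATGCG of the NRF1 site. Among the 27025 promoters of the same length, 4.06% held the first, 1.26% the second and 1.81% the third. In the 8 windows the only match was 1 NRF1 core, in Acadm, 159 bases before the start. A match is a run of letters and not a bound site, and no match says only that these letters are not in this window.

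The deposited matrices held 10799936 UMIs in 4634 barcodes for CT and 18662032 UMIs in 6475 barcodes for Opa1 cKO, and 1790 and 3764 cells were kept. The libraries shared 36 barcodes, 9 of them among kept cells. Clustering gave 7 classes named by markers. The largest, NSC pool-like cells, held 1349 CT and 2553 Opa1 cKO cells with median depths of 2493 and 2976 UMIs. All 13 NSC pool markers were detected in both, summing to 77442 CPM (counts per 1000000 UMIs of the cells summed) in CT and 69279 CPM in Opa1 cKO. The class joins a cluster of 1344 CT and 772 Opa1 cKO cells and a cluster of 5 CT and 1781 Opa1 cKO cells, the latter led by stress genes such as Nupr1, Gdf15 and Chac1. Both clusters were named by Aldoc, Slc7a10, Cxcl14 and Hsd11b1, the former also by Slc1a2. Whether their cells are stem cells or astrocytes was not tested. Opa1 was at 18.6 CPM in CT against 7.83 CPM in Opa1 cKO cells of this class (69 and 66 UMIs), a log2 ratio of -1.25 (-1.76 to -0.74). The assay tags the 3′ end of transcripts, and whether the tag lies in the deleted part was not established. The libraries also differed in 4 erythroid markers, 316 CPM in CT against 8.90 CPM in Opa1 cKO NSC pool-like cells, and the part of this in the results was not tested.

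In NSC pool-like cells, the 3 acyl-CoA dehydrogenases, Hadhb and Acsbg1 were higher in the Opa1 cKO library, while the carnitine shuttle genes, Hadha and Acaa2 had intervals that reached 0. Hadhb stood at 311 CPM in CT (294 to 330) and 478 CPM in Opa1 cKO (464 to 493). The log2 ratio was 0.62 (0.52 to 0.71), and Hadhb was the only one of the 9 genes at or past 1.5-fold. Among all 11269 genes with at least 20 UMIs, 14.2% were at least 1.5-fold higher and 13.3% at least 1.5-fold lower, so that 1 of 9 higher and 0 of 9 lower is near or under the background. With mt- UMIs left out of the total, or with ratios centred on the median of genes with at least 300 UMIs, 0 of the 9 were past 1.5-fold. The median log2 ratio of the 9 genes was 0.28, against 0.04 for all tested genes and 0.14 for those with at least 300 UMIs.

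The acyl-CoA dehydrogenases, which take the first step of each round of oxidation, were similar in size of difference. Acadl, the long-chain enzyme, was at 132 CPM in CT against 183 CPM in Opa1 cKO, which gave a log2 ratio of 0.47 (0.32 to 0.62). Acadm, the medium-chain enzyme, was at 126 and 170 CPM, a log2 ratio of 0.43 (0.28 to 0.59). Acadvl, the very-long-chain enzyme, was at 137 and 181 CPM, a log2 ratio of 0.41 (0.26 to 0.55). For none of the 3 did the counting intervals of the libraries overlap.

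Acsbg1, which activates long and very long chains, was at 1025 CPM in CT (992 to 1058) and 1245 CPM in Opa1 cKO (1221 to 1269), which gave a log2 ratio of 0.28 (0.23 to 0.33). It was by far the most counted, with 14279 UMIs over both libraries. In cells thinned to 1500 UMIs, 75.4% of 1256 CT cells (72.9 to 77.8) and 82.6% of 2357 Opa1 cKO cells (81.1 to 84.2) held an Acsbg1 UMI, and before thinning 86.7% and 92.6%. The thinned share in oligodendrocyte-like cells, a type not known for Acsbg1, was 6.76% of 74 CT and 13.9% of 101 Opa1 cKO cells, at median depths before thinning of 3768 and 3914 UMIs. Shallower cells left out of the thinned NSC pool-like values numbered 93 and 196.

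With CPM over all UMIs, the remaining genes did not differ beyond counting error. Cpt1a, the gate of the carnitine shuttle, was at 59.2 CPM in CT against 53.2 CPM in Opa1 cKO, which gave a log2 ratio of -0.15 (-0.39 to 0.08). Cpt2 was at 32.4 and 26.7 CPM, a log2 ratio of -0.28 (-0.61 to 0.05). Acaa2, a thiolase of the last step but not the only one, was at 166 and 175 CPM, a log2 ratio of 0.08 (-0.06 to 0.22). The intervals of both shuttle genes still allow a difference as large as that of Acsbg1 in the opposite direction, and that of Acaa2 ends below the log2 ratio of Acadvl.

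**Figure D1:**
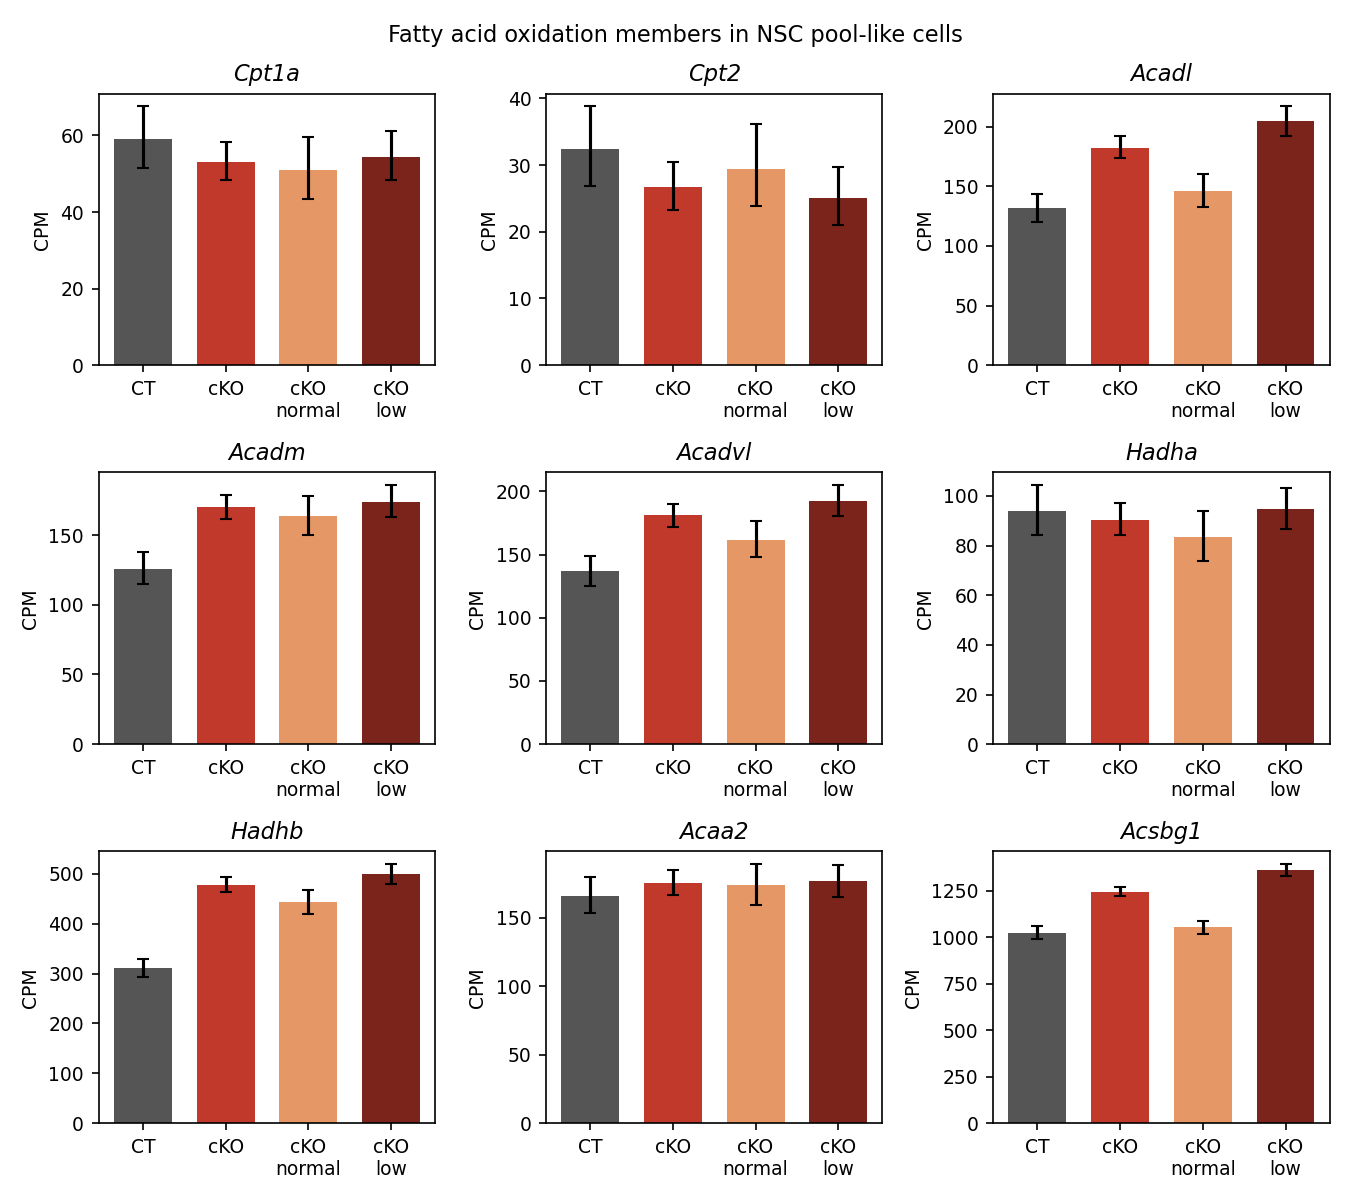
CPM of each of the 9 genes (y axis, from 0) in NSC pool-like cells of CT, of all Opa1 cKO cells (cKO) and of Opa1 cKO cells with an mt- share of at least 1% (normal) or under 1% (low), with exact 95% counting intervals. Hadhb and Acadm are higher than in CT in both mt- groups, whereas Acsbg1 and Acadl are higher mainly in the low group.

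The 2 subunits of the trifunctional protein diverged. Hadha was at 93.8 CPM in CT against 90.4 CPM in Opa1 cKO, which gave a log2 ratio of -0.05 (-0.24 to 0.13), beside the 0.62 of Hadhb. The balance of the 2 mRNAs needs no scaling by library depth. Hadhb made up 76.9% of the 1499 UMIs of both genes in CT (Clopper-Pearson 74.6 to 79.0) and 84.1% of 4792 in Opa1 cKO (83.0 to 85.1), or 3.32 and 5.29 Hadhb UMIs per Hadha UMI. Opa1 cKO cells gave nearly the same share in both mt- groups, 84.2% (82.3 to 85.9) where the mt- share was at least 1% and 84.1% (82.7 to 85.3) where it was under 1%.

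Outside the kept cells the balance differed too. In barcodes without a YFP UMI, Hadhb was 77.2% of 1826 UMIs in CT (75.2 to 79.1) and 82.7% of 2508 in Opa1 cKO (81.2 to 84.2). Such barcodes came from the same sort and can be YFP+ cells in which YFP was not sampled. In classes with few cells the intervals were wide. The share was 70.7% in CT and 70.6% in Opa1 cKO endothelial-like cells, 67.2% and 71.3% in oligodendrocyte-like cells, 82.4% and 73.3% in mural-like cells, and 75% and 75.2% in ependymal-like cells. Progenitor and neuron-like cells stood at 64.9% (52.9 to 75.6) and 77.0% (68.1 to 84.4), and radial glia and activated NSC-like cells at 69.0% (52.9 to 82.4) and 81.7% (78.4 to 84.6), the former from 39 cells of which few stayed in the class under another clustering. Within each of these 6 classes the intervals of the libraries overlapped.

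**Figure D2:**
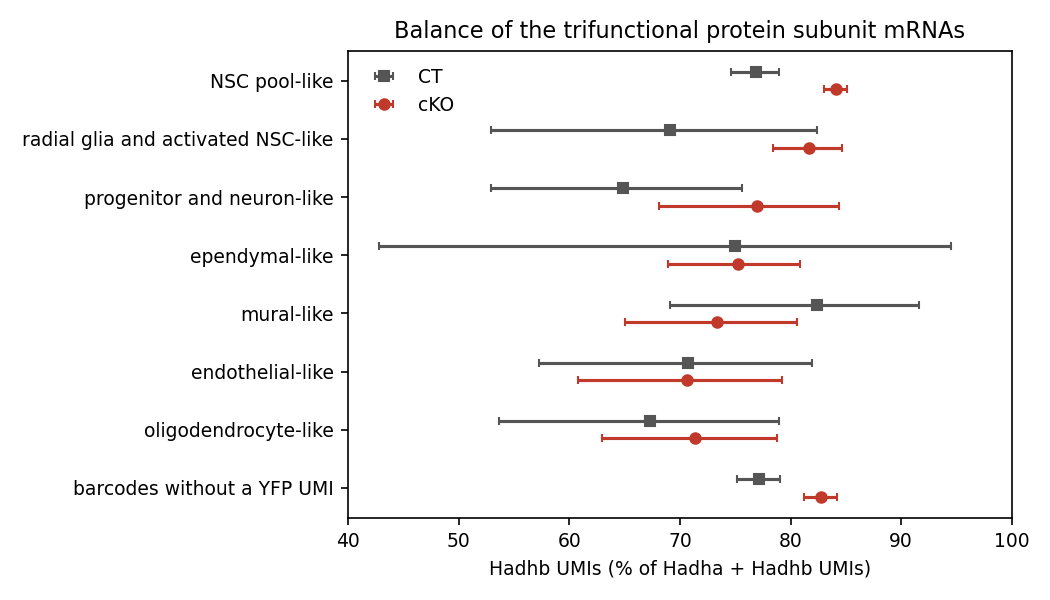
Hadhb UMIs as a percentage of Hadha and Hadhb UMIs (x axis, from 40 to 100) by class and in barcodes without a YFP UMI, for CT (squares) and Opa1 cKO (circles), with exact 95% binomial intervals. The intervals of the libraries are apart in NSC pool-like cells and in barcodes without a YFP UMI and overlap in the 6 other classes.

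In NSC pool-like cells the mitochondrially encoded (mt-) transcripts took 5.88% of CT UMIs but 2.14% of Opa1 cKO UMIs, so the 9 genes were next read by mt- share. NSC pool-like cells of Opa1 cKO with under 1% of UMIs from mt- genes, called low, numbered 1575, and those with at least 1%, called normal, 978. Of CT cells, 3 were low. All low cells lay in the cluster led by stress genes, as did 206 of the normal ones. Atf4, the transcription factor of the integrated stress response, was at 76.8 CPM in CT, 99.8 CPM in normal and 279 CPM in low cells, and its target Asns, asparagine synthetase, at 0.270, 17.1 and 109 CPM. Trib3, another target, was at 20.3 CPM in normal and 121 CPM in low cells. The normal cells were not alike in this. Atf4 was at 253 CPM from 1 to 2% mt- share and 120 CPM from 2 to 4%. It was at 60.9 CPM from 4 to 8% and 60.3 CPM at 8% or more. CT stood at 103, 66.9 and 80.2 CPM in the last 3 of these steps. Asns was at 63.8 CPM from 1 to 2% but 4.06 CPM from 4 to 8%, and Trib3 at 91.1 and 5.22 CPM.

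Between the mt- groups of the Opa1 cKO library, Acadl and Acsbg1 differed most among the 9 genes. Acadl was at 146 CPM in normal and 205 CPM in low cells, a log2 ratio of 0.49 (0.33 to 0.65). Acsbg1 was at 1053 and 1359 CPM, a log2 ratio of 0.37 (0.31 to 0.43). Acadvl, at 162 and 193 CPM with a log2 ratio of 0.25 (0.10 to 0.41), and Hadhb, at 443 and 499 CPM with 0.17 (0.08 to 0.27, or -0.057 when centred on genes with at least 300 UMIs), lay nearer to the median of all 10767 tested genes, which was itself 0.18. The other 5 genes had intervals that reached 0, from -0.23 for Cpt2 to 0.18 for Hadha. Of all tested genes, 77.6% had a lower ratio than Acadl and 67.9% a lower one than Acsbg1. None of the 9 was past 1.5-fold, where 15.4% of tested genes were higher and 6.17% lower.

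These groups differ in more than mt- transcripts. The NSC pool markers summed to 81728 CPM in normal and 61825 CPM in low cells, and 5 oligodendrocyte precursor markers to 167 and 356 CPM. The 6 microglia markers summed to 27.6 and 22.8 CPM. The part of these in the differences of the 9 genes was not tested. Median depth was 2964 and 2983 UMIs.

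Set against CT, the normal cells of Opa1 cKO showed which genes differed between the libraries with the cells under 1% mt- share left out. The normal cells still held 151 cells from 1 to 2%, where CT held 11. Hadhb, at 443 CPM against 311 CPM in CT, had a log2 ratio of 0.51 (0.40 to 0.62). Acadm, at 163 against 126 CPM, had 0.38 (0.19 to 0.56), and Acadvl, at 162 against 137 CPM, had 0.24 (0.06 to 0.42). Acadl (0.15, -0.04 to 0.34) and Acsbg1 (0.04, -0.03 to 0.11) had intervals that reached 0, as had Acaa2, Hadha, Cpt1a and Cpt2. None of the 9 was past 1.5-fold, where 4.91% of 10559 tested genes were higher and 12.8% lower, with a median of -0.06. The CT cells are the same as in the comparison of genotypes, and the normal cells are shared with the comparison of mt- groups.

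**Figure D3:**
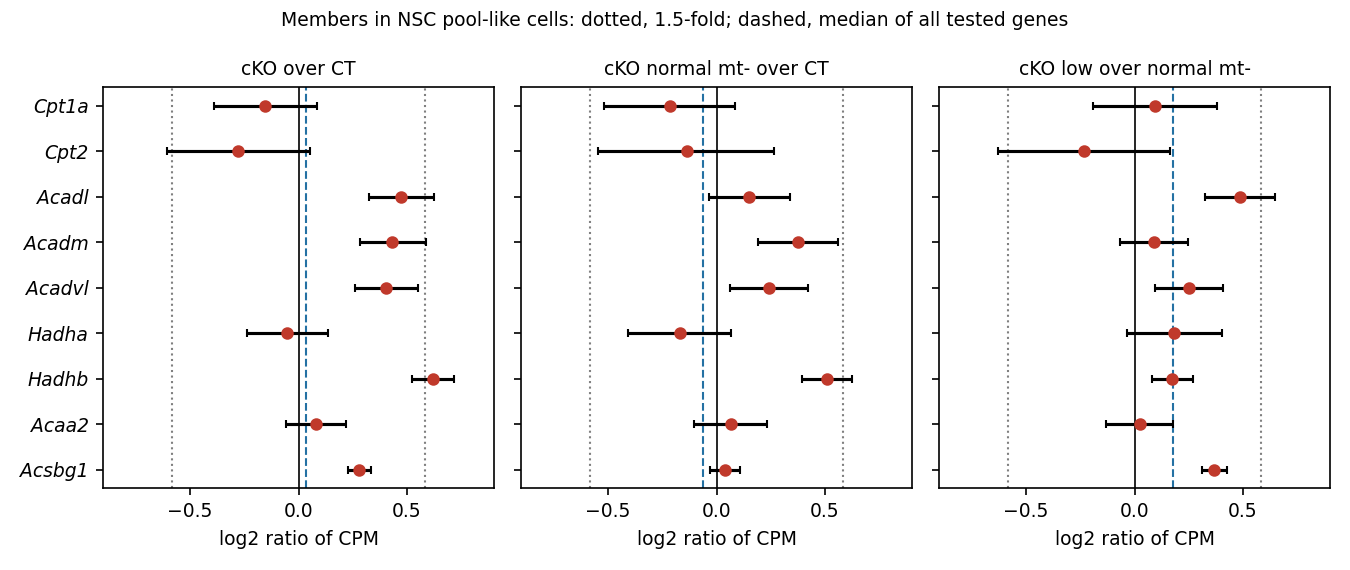
Log2 ratios of CPM (x axis) for the 9 genes in NSC pool-like cells with exact 95% intervals, for Opa1 cKO over CT, for Opa1 cKO cells of normal mt- share over CT, and for low over normal mt- share within Opa1 cKO. Dotted lines mark 1.5-fold and dashed lines the median of all tested genes. The intervals of Hadhb and Acadvl lie right of 0 in every panel. Those of Acadm do so in the first 2 panels, and those of Acsbg1 and Acadl in the first and last.

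In finer steps of mt- share, Acsbg1 was lower at each next step in the Opa1 cKO library, although the intervals of neighbouring steps between 0.5 and 8% overlapped. It was at 1434 CPM below 0.5%, 1226 CPM from 0.5 to 1%, 1152 CPM from 1 to 2%, 1086 CPM from 2 to 4%, 1069 CPM from 4 to 8% and 775 CPM at 8% or more. CT held 1, 2 and 11 cells in the 3 lowest steps and stood at 1139, 1031 and 836 CPM in the last 3 steps. In each of these 3 steps the intervals of the libraries overlapped, so that at a matched mt- share the Acsbg1 levels of the libraries were not told apart. The sum of the other 8 genes also fell, though not at every step, from 1461 CPM below 0.5% to 1164 CPM at 8% or more in Opa1 cKO. In CT that sum was at 1162 CPM from 2 to 4% and 870 CPM at 8% or more. CPM totals include mt- UMIs, and their part in these falls was not tested.

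Hadhb differed from CT at matched mt- share. It was at 433, 457 and 401 CPM in the last 3 steps of Opa1 cKO and at 338, 322 and 237 CPM in those of CT, with intervals that did not overlap in any of the 3. Acadl was at 206 and 203 CPM in the 2 lowest steps of Opa1 cKO and between 125 and 151 CPM in the other 4. In CT it was at 142, 140 and 88.7 CPM. Hadha showed no order, between 77.1 and 118 CPM over the 6 steps of Opa1 cKO and between 90.3 and 106 CPM over the 3 of CT.

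**Figure D4:**
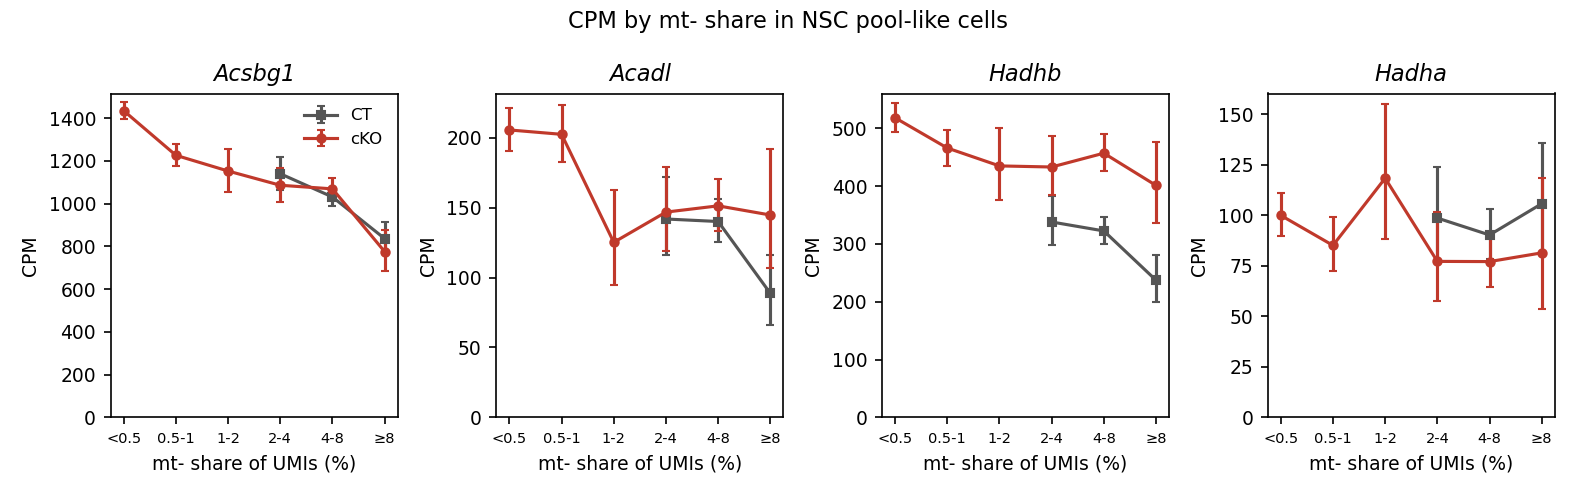
CPM (y axis, from 0) of Acsbg1, Acadl, Hadhb and Hadha in NSC pool-like cells by the share of UMIs from mt- genes (x axis, in percent), for CT (squares) and Opa1 cKO (circles), with exact 95% intervals. Steps with under 50 cells are left out, which removes the 3 lowest of CT. The libraries overlap for Acsbg1 and are apart for Hadhb at the same mt- share.

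Across the 7 classes, Acsbg1 was highest in NSC pool-like cells and next in radial glia and activated NSC-like cells, at 647 CPM in CT (39 cells) and 641 CPM in Opa1 cKO (437 cells). The size of the CT part of the latter class depended on the clustering. It was 41 cells at resolution 0.4, 46 after log-normalization and 50 with member, pathway, mt- and stress response genes left out. Clustering only this class with NSC pool-like and progenitor and neuron-like cells gave 17. Clustered without the 5% highest Scrublet scores, an alternative added after seeing the data, the class held 11 CT cells, with Acsbg1 at 484 CPM (264 to 812). It then held 409 Opa1 cKO cells, with 637 CPM. None of its 39 CT cells was left out by score, and 29 of them joined the NSC pool-like class. The other 5 classes lay between 57.8 and 131 CPM in CT and between 104 and 223 CPM in Opa1 cKO, and within CT their intervals overlapped. Hadhb had a flatter order. In CT it ran from 311 CPM in NSC pool-like, 280 in radial glia and activated NSC-like and 251 in mural-like cells, whose intervals overlapped, down to 82.2 CPM in ependymal-like cells. Acaa2 was lowest in oligodendrocyte-like cells, at 6.94 CPM in CT (2 UMIs) and 25.2 CPM in Opa1 cKO (11 UMIs), against 142 and 126 CPM in endothelial-like cells.

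The 3 genes whose levels followed Acsbg1 most closely over the 14 library and class sums, among 7149 genes, were Aldoc (Pearson's r of 0.99 on log2 of CPM plus 10), Cspg5 (0.98) and Gpc5 (0.98). Aldoc is among the NSC pool markers that named the class. For Hadhb they were Alg3 (0.95), Eci1 (0.95), an enoyl-CoA isomerase of the same pathway, and Asah1 (0.94). The points share 2 libraries and are given as a description.

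**Figure D5:**
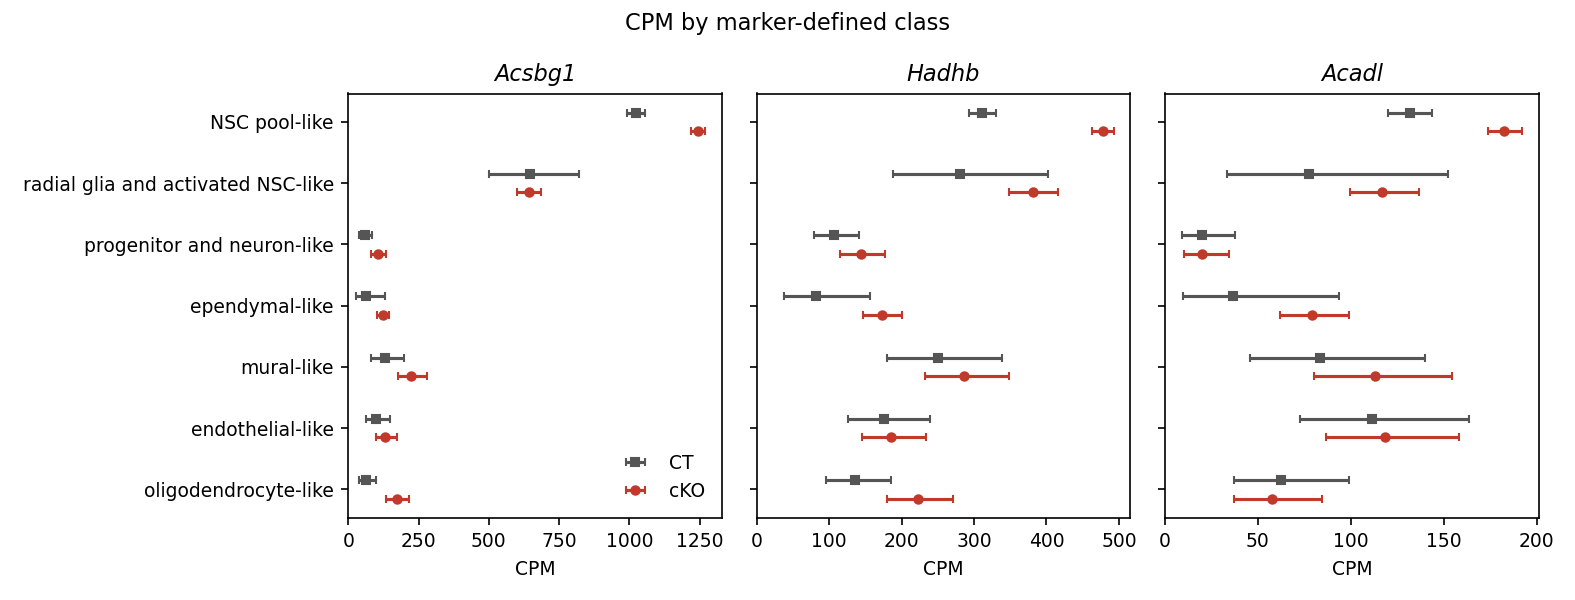
CPM (x axis, from 0) of Acsbg1, Hadhb and Acadl in the 7 marker-defined classes of CT (squares) and Opa1 cKO (circles), with exact 95% intervals. Acsbg1 stands apart in NSC pool-like and in radial glia and activated NSC-like cells, while Hadhb and Acadl are spread more evenly over the classes.

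Between genotypes, few genes of the other classes had intervals clear of 0. In oligodendrocyte-like cells, whose mt- share of UMIs was 4.96% in CT and 4.78% in Opa1 cKO, Acsbg1 was at 62.5 CPM (18 UMIs) and 172 CPM (75 UMIs), a log2 ratio of 1.46 (0.70 to 2.29). Hadhb there was at 135 and 223 CPM, a log2 ratio of 0.72 (0.17 to 1.29), and Acadm at 48.6 and 91.8 CPM, with 0.92 (0.01 to 1.91). The 13 NSC pool markers summed to 10453 CPM in CT against 14318 CPM in Opa1 cKO oligodendrocyte-like cells, none of them at 0, and the part of RNA from other cells in these values was not tested.

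In endothelial-like cells Acadvl was lower in Opa1 cKO, at 150 and 64.5 CPM (35 and 25 UMIs), a log2 ratio of -1.22 (-2.02 to -0.44), and Acadm higher, at 55.8 and 111 CPM, with 0.99 (0.07 to 2.01). The 4 erythroid markers summed to 42.9 CPM in CT against 30462 CPM in Opa1 cKO endothelial-like cells, and their part was not tested. Acsbg1 was higher in progenitor and neuron-like cells, at 57.8 and 104 CPM with a log2 ratio of 0.85 (0.17 to 1.57), and in mural-like cells, at 131 and 223 CPM with 0.76 (0.06 to 1.52). In these the NSC pool markers summed to 5148 and 8306 CPM and to 15534 and 16203 CPM. In ependymal-like cells, of which CT held 39, Hadhb was at 82.2 and 173 CPM (9 and 164 UMIs), a log2 ratio of 1.07 (0.11 to 2.22). Of the genes tested there, 85.8% had a lower ratio.

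Within the Opa1 cKO library the direction of Acsbg1 with mt- share was not the same in all classes. In radial glia and activated NSC-like cells it was at 591 CPM in 318 normal and 797 CPM in 119 low cells, a log2 ratio of 0.43 (0.22 to 0.64). In progenitor and neuron-like cells it was at 90.3 and 119 CPM, with 0.40 (-0.36 to 1.17). In ependymal-like cells it was lower in the low group, at 177 CPM in 71 normal and 96.1 CPM in 173 low cells, with -0.88 (-1.43 to -0.33). The 6 microglia markers summed to 90.8 CPM in radial glia and activated NSC-like cells of Opa1 cKO, against 24.6 CPM in NSC pool-like cells, and their part was not tested.

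The other genes of the pathway were read from a list of 65, of which 57 reached 20 UMIs in NSC pool-like cells. Between genotypes 9 were at least 1.5-fold higher in Opa1 cKO and 8 at least 1.5-fold lower, where 14.2% and 13.3% of all tested genes were, and their median log2 ratio was 0.15. Among 15 other genes of mitochondrial beta-oxidation, 3 were higher and 1 lower, with a median of 0.26. Echs1, the enoyl-CoA hydratase, was at 186 CPM in CT against 350 CPM in Opa1 cKO, which gave a log2 ratio of 0.91 (0.79 to 1.04). Acad12, an acyl-CoA dehydrogenase family member, was at 21.6 and 13.2 CPM, with -0.71 (-1.14 to -0.28).

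The 10 genes listed under activation also include thioesterases, which reverse it. Of these 10, 2 were higher, Acot1 and the acyl-CoA synthetase gene Acsl1, and 1 was lower, the synthetase gene Acsl4. Of all tested genes 14.2% were higher and 13.3% lower. Acot1, a thioesterase that releases the fatty acid from coenzyme A, was at 117 and 210 CPM, with a log2 ratio of 0.84 (0.69 to 1.00). Acot1 has close paralogs, and how reads were divided among them is uncertain. Of 4 other genes of the carnitine shuttle none was past 1.5-fold in either direction. Among 10 peroxisomal genes 2 were higher and 2 lower, beside the same shares of all tested genes. Crot, which makes carnitine esters in peroxisomes, was at 204 and 361 CPM, with 0.83 (0.71 to 0.94).

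Among 11 regulators and PPAR targets 1 was higher and 3 were lower, where 14.2% and 13.3% of all tested genes were. Plin2, a lipid droplet coat protein, was at 40.8 and 72.1 CPM, a log2 ratio of 0.82 (0.56 to 1.09). Pdk4, which inhibits pyruvate dehydrogenase, was at 26.5 and 11.9 CPM, with -1.16 (-1.57 to -0.74). Ppard, a nuclear receptor, was at 16.5 and 10.1 CPM, with -0.71 (-1.20 to -0.21).

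Of the genes of ketone body metabolism, Oxct1 was past 1.5-fold in the higher direction. Oxct1, which begins the use of ketone bodies, was at 139 CPM in CT against 221 CPM in Opa1 cKO, which gave a log2 ratio of 0.67 (0.52 to 0.81). Acat1, Bdh1, Bdh2 and the transporter Slc16a1 lay within 1.5-fold, with log2 ratios of 0.17, 0.03, -0.0014 and -0.12.

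By mt- share within Opa1 cKO, 6 of the 57 genes were higher in low cells, among them Acot1, Acot2, Acsl1, Echs1 and Crot, and 1 was lower, where 15.4% and 6.17% of tested genes were. In normal Opa1 cKO cells against CT none was higher and 6 were lower, where 4.91% and 12.8% were.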

How the data were processed

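The authors aligned reads of the 10x Genomics 3′ assay to mm10 and counted UMIs per gene and barcode with Cell Ranger (2.1.1 in the submitters' processing notes, 3.1.0 in the matrix header). The deposited counts are raw and include barcodes outside the study's filters. Counts of features that share a symbol were summed. Cells with over 600 and under 7500 genes, under 20% mt- UMIs and at least 1 YFP UMI were kept, normalized by SCTransform and clustered in Seurat 5.3.0 (sctransform 0.4.2, R 4.3.3; 8 dimensions, resolution 0.2). Clusters were named by the list with most of its markers, 3 or more, among the 50 genes that led the cluster. Clusters left unnamed were compared with clusters of other named types only, a step set after the clusters were seen, which named the NSC pool-like class. No doublets were removed, since Scrublet marked 6 CT and 1 Opa1 cKO barcodes, too few to have worked. UMIs were summed per library and class. CPM have exact Poisson intervals, log2 ratios exact binomial ones, and a gene past 1.5-fold counted as higher or lower among genes with at least 20 UMIs in the groups compared. The calculations used scipy 1.17.1 and were tested on simulated Poisson counts, which hold no spread between cells or libraries. Depth after filtering was 5051491 UMIs in CT and 12483473 in Opa1 cKO. Without the YFP rule 4186 CT and 6121 Opa1 cKO barcodes passed. The study reports more cells in each library than passed either way, and the reason was not established. The genes named are the 9 enzymes, Opa1, Atf4, Trib3, Asns, the ketone body genes, the other pathway genes with the 4 highest and 4 lowest ratios among those with at least 100 UMIs, and the 3 genes most like Acsbg1 and Hadhb. Some of these genes are left out of the text. The 9 enzymes and all lists were chosen with earlier results of these data known. Other genes named, and the balance of Hadha and Hadhb, were chosen after their values were seen. Alternatives changed the filters, clustering, mt- cut, denominator, scaling and depth.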

Additional observations from a re-analysis of the deposited data

How the results depend on the processing

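Of the recomputed medians, counts and background shares, 152 kept their direction and size, 10 moved and 1 reversed. Of the ratios of single genes 342 stayed within their interval, 26 moved and 1 reversed. Between genotypes the median log2 ratio of the 9 genes, 0.28, was 0.55 as UMIs per cell, 0.14 when centred on the median of genes with at least 300 UMIs, and 0.22 with mt- UMIs left out of the denominator. The number of the 9 genes at least 1.5-fold higher, 1, became 4, 0 and 0 in the same settings. Hadhb ranged from 0.48 to 0.89 and Acsbg1 from 0.14 to 0.55. Cpt1a ranged from -0.30 to 0.11, Cpt2 from -0.42 to -0.01, Hadha from -0.20 to 0.21 and Acaa2 from -0.06 to 0.35. Whether Cpt1a, Cpt2, Hadha and Acaa2 differed beyond counting error thus depends on the scaling. Within Opa1 cKO, the median for low over normal mt- share, which is the value of Hadhb, was 0.025 with edgeR 4.0.16 TMM factors and -0.057 when centred. The median gene with at least 300 UMIs was itself at 0.23 in that comparison, and in the same centring Acadl was 0.26 and Acsbg1 0.14. With at least 100 UMIs per gene, the share of genes at least 1.5-fold lower there was 2.80%, and for normal cells over CT 2.54% were higher and 8.497% lower. Fewer genes are tested there. The cause of the other changes was not tested.

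The planned removal of Scrublet calls was not run, and cells were instead left out by the 5% highest scores, an alternative chosen after seeing the data. Without the YFP filter no radial glia and activated NSC-like class was found. No paired analysis was possible because each genotype is 1 pooled library. Depth limits Cpt1a and Cpt2 and every class other than NSC pool-like cells.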
